A study of Mus musculus with 8 samples.

Results

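Gfi1, Gfi1b, Kdm1a and Rcor1 encode the DNA-binding, enzymatic and scaffold parts of one repressor machinery. Their loci were followed in open-chromatin peak lists of leukemic cells with and without the chromatin protein DEK. A peak was counted for a gene when its summit lay inside the gene or within 50 kb of its mm10 span. After peaks of the 8 libraries that shared at least 1 bp were merged, 70 of 138385 regions met this rule: 21 at Gfi1, 15 at Gfi1b, 12 at Kdm1a and 22 at Rcor1. They held 386 of 620625 peaks.

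ATAC-seq finds open chromatin as sites where a transposase inserts sequencing adapters. It was run on leukemic granulocyte-macrophage progenitors (L-GMPs), sorted for c-Kit, CD34 and CD16/32 and against Sca-1 and lineage markers from bone marrow of mice with acute myeloid leukemia. All groups carried the MLL-AF9 fusion as the leukemia driver. FL 1 and FL 2 were Dekfl/fl, KO 1 and KO 2 were Dekfl/fl,MX1-Cre, FL 3 was Dek+/+, KO 3 was Dekfl/fl;Tie2-Cre, and 4S-A 1 and 4S-A 2 carried Dek-Ser306A/Ser308A/Ser311A/Ser312A, with alanine in place of 4 serines. Mx1-Cre is switched on by interferon signalling, and Tie2-Cre acts in endothelial and blood-forming cells from development on. FL 1, FL 2, KO 1 and KO 2 are called set 1 here, and the other 4 libraries set 2. In set 1 only the KO libraries carry Mx1-Cre, and in set 2 only KO 3 carries Tie2-Cre. The sets differ in Cre line, control genotype and list length, which cannot be told apart. The labels give no ages and do not say whether libraries of a group came from separate animals, so any p-value measures the spread between libraries only. The deletion of Dek was not checked here. The 4S-A group had no control of its own beside FL 3, and FL controls differed in genotype between the sets.

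GFI1 and GFI1B are zinc-finger repressors that carry a short SNAG domain at their N terminus. Through this domain they recruit the histone demethylase LSD1 (Kdm1a), the scaffold CoREST (Rcor1) and histone deacetylases, which together remove activating marks from target genes. GFI1 is needed for granulocyte development, GFI1B for red cells and megakaryocytes, and LSD1 is a drug target in acute myeloid leukemia. A region about 35 kb upstream of Gfi1 is known as one of its blood enhancers.

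The promoter sequences of the 4 gene starts differ in base composition. Their relation to the rank of the gene-end peaks described next was not tested. They are the 250 bases before the annotated start, from the RefSeq promoter table of GRCm38.p6 (the assembly also called mm10), written 5′ to 3′ on the gene's strand. Capitals mark matches, on either strand, to 1 of 7 motifs. These were AAATCAC for GFI1, AGATAA for GATA factors, TGTGGT for RUNX factors, CGGAAG for ETS factors, TTGCGCAA for C/EBP factors, GGGCGG for SP and KLF factors, and CCAAT for NF-Y. No 2 matches overlapped. For Kdm1a the table's start lies 64 bases inside the gene span from which distances are given here, so the window is not wholly upstream of that span.
Gfi1, chr5:107725806-107726055, minus strand: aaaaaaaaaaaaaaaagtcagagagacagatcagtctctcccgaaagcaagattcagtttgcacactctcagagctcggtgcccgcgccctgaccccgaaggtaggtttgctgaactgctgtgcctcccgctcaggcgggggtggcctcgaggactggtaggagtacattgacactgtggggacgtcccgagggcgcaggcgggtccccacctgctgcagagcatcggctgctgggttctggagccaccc
Gfi1b, chr2:28621983-28622232, minus strand: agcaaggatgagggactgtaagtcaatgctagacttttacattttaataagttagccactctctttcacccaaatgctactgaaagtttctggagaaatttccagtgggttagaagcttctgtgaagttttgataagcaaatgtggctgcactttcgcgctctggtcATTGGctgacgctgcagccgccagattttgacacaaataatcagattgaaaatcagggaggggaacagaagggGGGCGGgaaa
Kdm1a, chr4:136602724-136602973, minus strand: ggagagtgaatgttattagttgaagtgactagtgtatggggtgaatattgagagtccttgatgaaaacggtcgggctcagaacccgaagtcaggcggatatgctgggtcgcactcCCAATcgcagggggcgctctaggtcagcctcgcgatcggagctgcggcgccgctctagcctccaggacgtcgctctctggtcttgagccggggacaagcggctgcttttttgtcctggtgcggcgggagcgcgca
Rcor1, chr12:111039117-111039366, plus strand: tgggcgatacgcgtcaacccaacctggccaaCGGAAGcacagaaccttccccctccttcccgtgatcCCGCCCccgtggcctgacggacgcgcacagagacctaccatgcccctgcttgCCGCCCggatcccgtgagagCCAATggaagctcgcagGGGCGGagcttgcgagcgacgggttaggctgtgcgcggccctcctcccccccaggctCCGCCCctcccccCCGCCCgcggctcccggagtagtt

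The Rcor1 promoter was the richest in G and C, at 70.4%, with 25 CpG dinucleotides and 7 motif matches, of which 5 were GGGCGG, 1 CGGAAG and 1 CCAAT. Gfi1 and Kdm1a both had 59.2% G and C, with 13 and 21 CpG. A second annotated Gfi1 start, at chr5:107724343, had a window of 57.6% G and C with 9 CpG and no motif match, not printed here. A region 1.3 kb inside Gfi1, held by 5 of the deposited lists, covers 214 bases of that window. The Gfi1b promoter had 44.4% and 5 CpG, below the medians of 52.4% and 6 CpG over all 32851 promoters of the table. The Gfi1 window held no match, Kdm1a held 1 CCAAT, and Gfi1b held 1 CCAAT and 1 GGGCGG, the latter 10 to 5 bases before the start. These are descriptions of letters: GGGCGG was present in 32.7% of all such windows, CCAAT in 33.8%, CGGAAG in 13.6%, TGTGGT in 14.0%, AGATAA in 9.99%, AAATCAC in 2.75% and TTGCGCAA in 0.164%.

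The lists gave no read counts, so each peak is described by its percentile: the share of peaks in the same library that it exceeded or equalled in −log10 q, from 0 for the weakest to 100 for the strongest. Lists were 51510, 54887 and 91586 peaks long in FL 1 to FL 3, 56245, 74026 and 93041 for the KO libraries, and 104605 and 94725 for 4S-A. Set 2 thus had the longer lists, and longer lists reach weaker peaks. Percentiles from lists as deposited are therefore compared only within a library. Between libraries, percentiles come from equal-length lists, made of the 51510 strongest peaks of each library. Values of a group are given in the order of the library numbers. A region without a peak is written as no peak. In lists as deposited this says that it was not called at that depth. In equal-length lists it can also mean that a called peak was weaker than the 51510 strongest.

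Most of these regions were open in both sets of libraries. Of the 70, 21 (30%) had no peak in set 1, against 39.1% of all regions. In set 2 there was none at 2 of the 70, against 13550 of all 138385 regions. All 8 libraries held 24 of the 70 regions (34.3%), against 24.1% of all regions, and 8 regions (11.4%) were in a single library, against 23.5%. Of the shared regions 6 lay at Gfi1, 6 at Gfi1b, 2 at Kdm1a and 10 at Rcor1. Another 2 (2.86%) were in all libraries of set 2 and in none of set 1, against 7.71% of all regions. The share held by all 8 libraries was not particular to these genes. It was 34.2% at CoREST and LSD1 partner genes, 34.8% at other SNAG-domain factors, 35.6% at known GFI1 targets and 29.5% at upstream regulators. The member regions per library numbered 33, 32 and 54 for the FL libraries, 37, 41 and 57 for the KO libraries, and 61 and 52 for 4S-A as deposited, and 29 to 35 of 48 in equal-length lists.

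**Figure D1:**
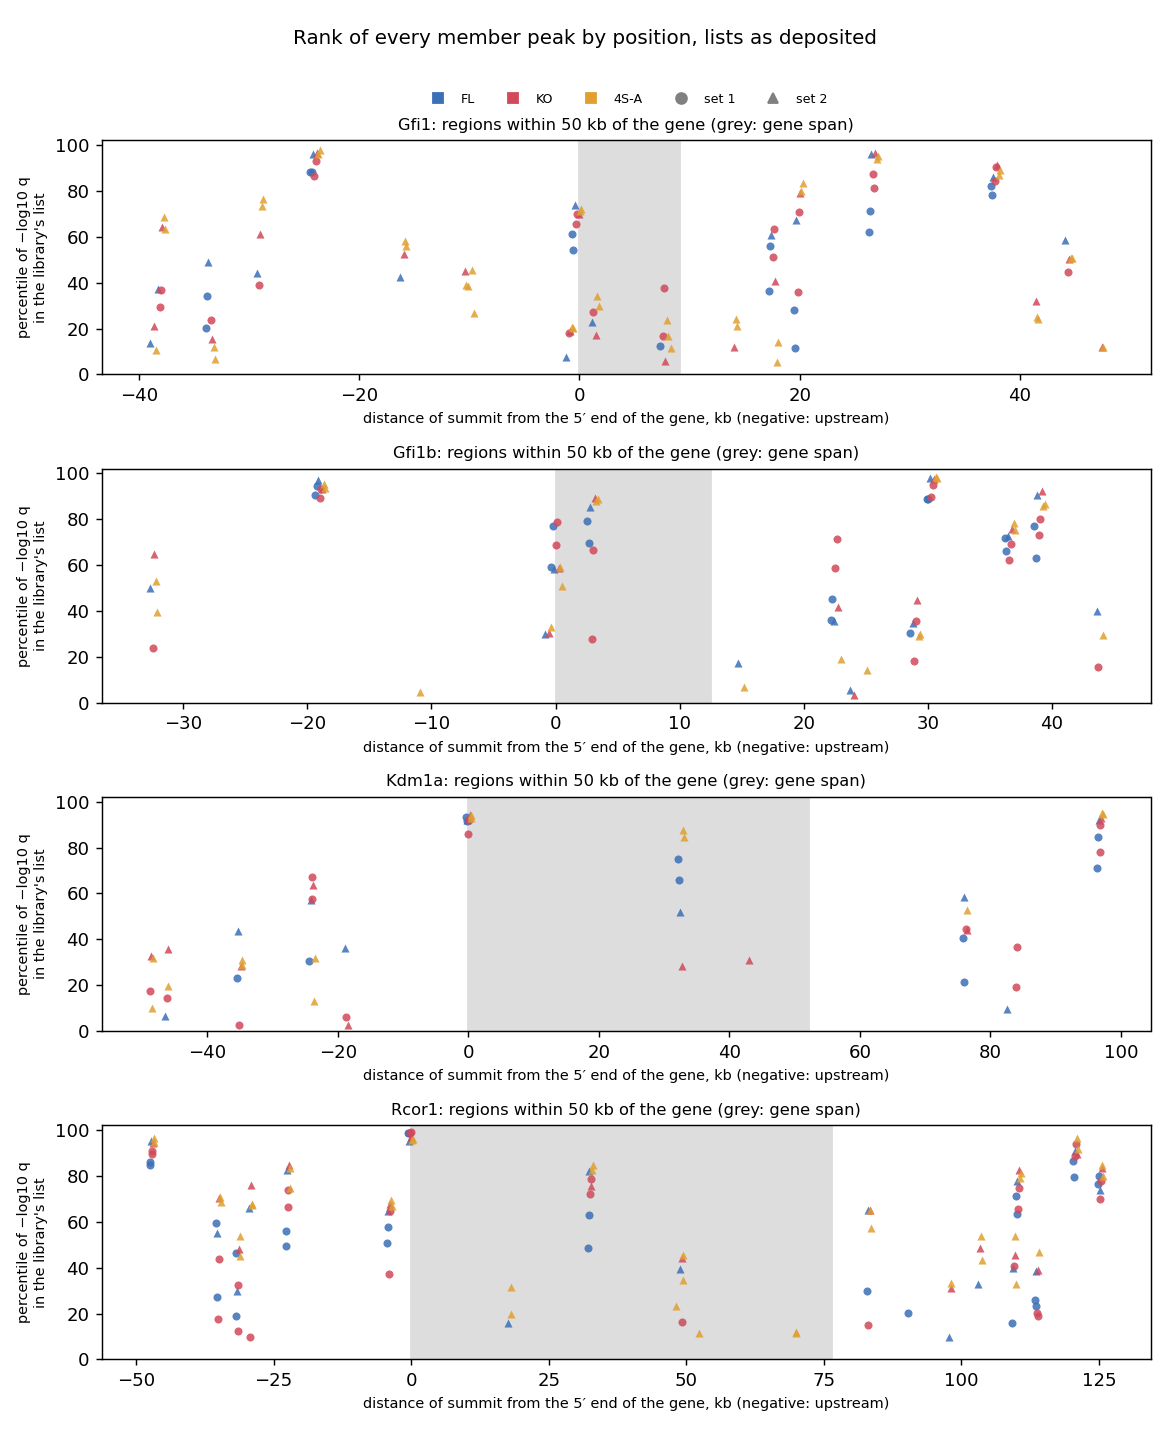
Percentile of −log10 q inside each library's deposited list (vertical axis) against the distance in kb of the region's summit from the 5′ end of the gene (horizontal axis), 1 point per library and region, shifted slightly sideways per library. Colours give the group, circles set 1 and triangles set 2; of the gene-end regions at 0 kb that all 8 libraries held, the Rcor1 and Kdm1a points lie above 85 and the Gfi1 and Gfi1b points between 50 and 79, with weaker regions of Gfi1 and Gfi1b beside them.

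The start of the Gfi1 gene (chr5:107716655-107725805, minus strand) was open in every library, with a mid-range rank. The gene-end region, chr5:107724704-107726550 with its summit 260 bp upstream of the start, covers the Gfi1 promoter printed above. Its percentile in equal-length lists was 61.3, 51.4 and 53.2 for the FL libraries, 62.3, 56.9 and 45.4 for the KO libraries, and 41.4 and 49.1 for 4S-A. The FL and KO libraries overlapped, with means of 55.3 ± 5.25 (SD, n = 3) and 54.9 ± 8.63 (SD, n = 3), and the 4S-A mean of 45.2 ± 5.47 (SD, n = 2) lay below both. The 4 libraries of set 2 averaged 47.2 ± 5.06 and those of set 1 58.0 ± 4.95 (SD, n = 4 each), and both 4S-A libraries belong to the former.

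The strongest Gfi1 region lay not at the gene but 24.0 kb upstream (chr5:107749111-107750378), inside the span of Evi5, the neighbouring gene that shares with Gfi1 a history as a retroviral insertion locus. Its equal-length percentile was 88.4, 87.5 and 92.9 for the FL libraries, 85.2, 90.0 and 93.8 for the KO libraries, and 92.1 and 96.0 for 4S-A. The KO and FL values overlapped and their means differed by 0.0832. Downstream of the gene, the regions at 26.7 kb (chr5:107698434-107699529) and 37.8 kb (chr5:107687811-107688754) were also open in all 8 libraries.

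The region 37.8 kb downstream of the Gfi1 start ranked higher in every KO than in every FL library. In equal-length lists its percentile was 82.0, 76.7 and 75.2 for the FL libraries and 82.7, 86.4 and 84.5 for the KO libraries, a mean difference of 6.56, and it was 73.8 and 79.9 for 4S-A. The lowest KO value exceeded the highest FL value by less than the spread within either group. It was 1 of 22 member regions tested that ranked higher without overlap, a share of 4.55% against 3.09% of 30257 regions. A shift of at least this size was present in 32.7% of all regions, and the call was lost with ranks by fold enrichment and in the lists as deposited.

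A pair of neighbouring regions upstream of Gfi1, both inside Evi5, traded places between FL and KO libraries. The first, 33.5 kb upstream (chr5:107759050-107759501), was the only region within 2.5 kb of the known enhancer position 35 kb upstream. The second lay 38.1 kb upstream (chr5:107763690-107764056). The pair was singled out after its values were seen.

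The region at 33.5 kb had deposited-list percentiles of 20.4, 34.4 and 49.0 for the FL libraries, no peak in KO 1, 23.9 and 15.5 in KO 2 and KO 3, and 12.0 and 6.76 for 4S-A. The region at 38.1 kb had no peak in FL 1 and FL 2, 37.1 in FL 3, 29.2, 36.7 and 64.3 for the KO libraries, and 68.5 and 63.6 for 4S-A. Inside each list, with a missing peak placed lowest, the nearer region thus ranked above the farther one in all 3 FL libraries. It ranked below the farther one in all 3 KO and both 4S-A libraries. In FL 1, FL 2 and KO 1, which had the shortest lists, the order rests only on a peak that was not called. The authors' fold enrichment over local background followed the same order: in FL 3 it was 7.14 at 33.5 kb and 6.44 at 38.1 kb, while in KO 3 it was 4.01 and 10.2 and in 4S-A 1 it was 3.68 and 11.1.

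In equal-length lists the contrast became one of presence. The region at 33.5 kb kept a peak in FL 1 to FL 3, at 20.4, 30.1 and 9.40, and in no KO or 4S-A library. The region at 38.1 kb had a peak in KO 1 to KO 3, at 22.7, 9.07 and 35.6, and in both 4S-A libraries, at 35.9 and 33.0, and in no FL library. All these ranks are in the lower 40% of the list. One more region, 38.8 kb upstream, had a peak in FL 3, KO 3 and 4S-A 2 only, at 13.6, 20.9 and 10.6 in the deposited lists.

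Pairs with such a swap were also counted among all regions, with a missing peak again placed lowest. Because the pair at Gfi1 was chosen for its order, these shares describe how common the order is and cannot test it. Of 33029 pairs of regions within 5 kb of each other, 65 (0.197%) had opposite orders in all FL and all KO libraries, and 26 (0.0787%) when both 4S-A libraries had to follow KO. The pair at Gfi1 was the only one of 20 member pairs. In equal-length lists it was 1 of 12 member pairs, against 54 of 17713 pairs (0.305%). Without KO 1 a second pair qualified, the regions 29.1 and 33.5 kb upstream of Gfi1.

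**Figure D2:**
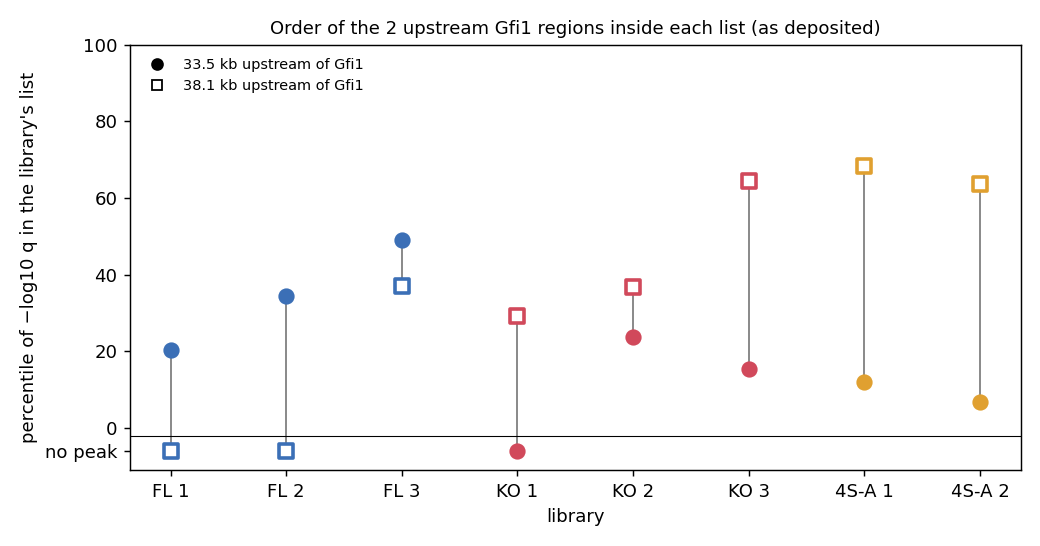
Percentile of −log10 q in each library's deposited list for the regions 33.5 kb (filled circles) and 38.1 kb (open squares) upstream of Gfi1, by library, joined by a line; points in the lowest band had no peak. The circle lies above the square in the 3 FL libraries and below it in the 3 KO and 2 4S-A libraries.

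The markers of the gate and of the granulocyte-macrophage lineage differed between FL and KO in both directions. In equal-length lists, the gene-end percentile of Mpo, the myeloperoxidase of granules, was 61.5, 43.1 and 2.36 for the FL libraries, 79.2, 74.9 and 21.3 for the KO libraries, and 46.3 and 50.8 for 4S-A. That of Elane, neutrophil elastase and a known GFI1 target, was 28.0, 46.7 and 21.4 for the FL libraries, 68.0, 55.8 and 31.0 for the KO libraries, and 25.0 and 36.1 for 4S-A. Within each set both ranked higher in KO than in FL. Fcgr3, which encodes a receptor recognised by the CD16/32 antibody of the gate, went the other way within each set, with 47.4, 31.3 and 41.6 in FL, no peak in KO 1, 30.3 and 24.7 in KO 2 and KO 3, and 3.96 in 4S-A 1 only. Fcgr2b, the other receptor it recognises, overlapped between FL (24.4 to 52.5) and KO (21.4 to 42.4). Cd34 was at 83.7, 83.1 and 22.5 in FL and 80.0, 80.2 and 48.1 in KO, lower in KO in set 1 and higher in set 2. The summed level of the 8 markers of the gate and lineage ranged from 216 to 348 in FL, 241 to 377 in KO and 229 to 250 in 4S-A, with Csf3r without a peak in any library. Their part in the result was not tested.

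The Gfi1 region 19.9 kb downstream of the start (chr5:107705526-107706606) had the widest range of the Gfi1 regions held by all 8 equal-length lists. Its equal-length percentile was 28.2, 5.52 and 42.0 for the FL libraries, 30.2, 58.2 and 62.0 for the KO libraries, and 59.7 and 69.8 for 4S-A. KO exceeded FL by 24.9 on average, KO 1 lay within the FL range, and a shift at least as large was present in 1.52% of regions. The difference was 15 without FL 2. The neighbouring region at 17.6 kb (chr5:107708062-107708702) went the other way in set 2. It had 36.6, 53.0 and 30.5 for the FL libraries and 46.7 and 47.4 in KO 1 and KO 2, and no peak in KO 3 or 4S-A in equal-length lists.

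The 4S-A libraries had their clearest Gfi1 difference 29.1 kb upstream (chr5:107754729-107755160). There the equal-length percentile was 46.2 and 56.8 for 4S-A, against 0.813 in FL 3 and 29.6 in KO 3. KO 2 had 12.4, and FL 1, FL 2 and KO 1 had no peak. The 4S-A mean was 36.3 above that of FL 3 and KO 3, a shift reached by 1.80% of 38321 regions.

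Gfi1b (chr2:28609450-28621982, minus strand) was open at its start in all libraries, and there the 2 sets stood apart while FL and KO did not. The gene-end region (chr2:28621632-28622103, summit 72 bp inside the gene) covers the 121 bases of the printed Gfi1b promoter that lie next to the start, which hold both of its motif matches. In equal-length lists its percentile was 59.3, 75.8 and 25.8 for the FL libraries, 66.0, 69.5 and 25.6 for the KO libraries, and 16.9 and 9.57 for 4S-A. Set 1 ranged from 59.3 to 75.8 and set 2 from 9.57 to 25.8, without overlap, while the FL and KO means were 53.6 ± 25.5 and 53.7 ± 24.4 (SD, n = 3 each). The share of all regions that separate the sets in this way was not counted, so the separation may not be particular to Gfi1b. Both 4S-A values lay below FL 3 and KO 3 of the same set.

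The markers of red cells and megakaryocytes, the lineages that need GFI1B, were sparse in these lists. Gata1 and Slc4a1 had no gene-end peak in any library. In equal-length lists the summed level of the 6 erythroid markers was 26.9 to 66.1 in FL, 24.3 to 88.5 in KO and 46.4 to 52.9 in 4S-A, most of it from Epor, the erythropoietin receptor. That of the 4 megakaryocyte markers was 12.6 to 83.5 in FL, 4.83 to 67.0 in KO and 0 to 2.45 in 4S-A. Itga2b, the integrin chain of platelets, was at 72.4, 68.8 and 12.6 for the FL libraries, at 26.0, 54.9 and 4.83 for the KO libraries, and had no peak in 4S-A. As at the Gfi1b start, the megakaryocyte values were lower in set 2 and lowest in 4S-A. This drop was not particular to megakaryocyte markers. The summed level of the gate and lineage markers was 317 to 377 in set 1 and 216 to 250 in set 2. The stem cell marker Procr was at 51.0 to 65.9 and 11.1 to 43.4, while the erythroid sums of the sets overlapped. The part of all these markers in the result was not tested.

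Inside the Gfi1b gene, 3.0 kb from its start (chr2:28618380-28619364), the sets disagreed on the knockout. The equal-length percentile was 79.0, 67.4 and 74.3 for the FL libraries, 21.0, 51.8 and 80.8 for the KO libraries, and 75.3 and 79.4 for 4S-A. KO minus FL was -36.8 for the set 1 libraries and 6.50 for KO 3 against FL 3, and -22.4 over both. KO 1 held much of the pooled value, which was -7.26 without it.

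The strongest Gfi1b region lay 30.3 kb downstream of the start (chr2:28591165-28591998), outside the gene. Its equal-length percentile was 88.8, 88.2 and 96.3 for the FL libraries, 88.6, 92.9 and 95.2 for the KO libraries, and 96.5 and 95.9 for 4S-A, with FL and KO overlapping. A region 19.0 kb upstream (chr2:28640531-28641807) is the start of Tsc1, an inhibitor of mTORC1 signalling. It had 90.7, 94.0 and 94.9 for the FL libraries, 88.3, 90.0 and 88.0 for the KO libraries, and 90.8 and 88.0 for 4S-A. All 3 KO values lay below the FL values, with a mean difference of -4.41. It was 1 of 22 member regions lower without overlap (4.55%), against 3.76% of all regions. A shift of at least this size was present in 45.1% of regions, and in the lists as deposited the groups overlapped, with a difference of -2.15.

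Kdm1a (chr4:136550533-136602787, minus strand) was strongly open at its start in all groups. The gene-end region (chr4:136601981-136603204) had equal-length percentiles of 93.4, 91.2 and 86.2 for the FL libraries, 84.5, 88.4 and 89.9 for the KO libraries, and 87.9 and 87.2 for 4S-A. The groups overlapped, with means of 90.3 ± 3.72 in FL, 87.6 ± 2.82 in KO (SD, n = 3 each) and 87.5 ± 0.481 in 4S-A (SD, n = 2).

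A region inside Kdm1a, 32.6 kb from its start (chr4:136569941-136570631), showed the largest gap between FL and KO of the Kdm1a regions. Its deposited-list percentile was 75.2, 65.8 and 51.8 for the FL libraries, there was no peak in KO 1 and KO 2, it was 28.4 in KO 3, and it was 87.8 and 84.6 for 4S-A. The authors' fold enrichment was 11.3, 8.54 and 9.11 for the FL libraries, 6.08 in KO 3, and 15.8 and 14.2 for 4S-A. All FL and 4S-A libraries thus held the peak, and of the KO libraries only KO 3 did.

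In equal-length lists this Kdm1a region was present in FL at 75.2, 63.5 and 14.3, without a peak in the 3 KO libraries, and present in 4S-A at 75.2 and 71.7. It ranked 5 of 193 by strength among the regions lost in KO under this rule, and 8 of 800 among those lost in set 1 as deposited. Against FL 3, the only control of the same set, 4S-A was higher by 59.2, a gap reached by 0.319% of 39824 regions. That gap rests on 1 control library.

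Farther out, the region 24.0 kb upstream of Kdm1a (chr4:136626430-136626975, inside Lactbl1) was stronger in KO. In equal-length lists its percentile was 64.3, 39.1 and 34.7 for the KO libraries, 30.7 and 23.8 in FL 1 and FL 3, and there was no peak in FL 2 or in either 4S-A library. Every KO value thus lay above those of FL 1 and FL 3. The region was picked out for this order after its values were seen. Because FL 2 had no peak, it was not among the regions compared by rank. The share of all regions with such an order was not counted. As deposited, both 4S-A libraries held a peak at the region 24.0 kb upstream, and FL 2 did not. The region 96.8 kb from the start (chr4:136505347-136506446), inside the next gene Luzp1, was the other one open in all 8 libraries, at 70.9 to 90.3.

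Rcor1 (chr12:111039367-111115902, plus strand) had the strongest gene start of the 4. The gene-end region (chr12:111038323-111039705, summit 152 bp upstream) covers the G- and C-rich promoter printed above. Its equal-length percentile was 98.9, 98.5 and 91.3 for the FL libraries, 98.5, 99.0 and 94.2 for the KO libraries, and 91.6 and 92.8 for 4S-A. FL averaged 96.2 ± 4.30 and KO 97.2 ± 2.63 (SD, n = 3 each), which overlapped, and set 2 was lower (91.3 to 94.2) than set 1 (98.5 to 99.0). As at Gfi1b, the share of all regions that separate the sets was not counted.

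The other Rcor1 regions ranged from strong ones with overlapping groups to weak ones that varied between libraries. Upstream, the region at 47.1 kb (chr12:110991359-110992649) had 86.0, 83.6 and 91.9 for the FL libraries, 88.7, 86.6 and 89.5 for the KO libraries, and 92.9 and 90.3 for 4S-A. Past the gene, the region 120.8 kb from the start (chr12:111159609-111160610) had 86.6, 78.2 and 83.7 for the FL libraries, 87.8, 91.2 and 81.4 for the KO libraries, and 93.1 and 85.1 for 4S-A. FL and KO overlapped at both, and no Rcor1 region was lost or gained between all FL and all KO libraries in either kind of list. The regions 125.3 kb (chr12:111164340-111166849) and 110.4 kb (chr12:111149481-111150469) from the start were next in strength. Weaker and more variable was the region 35.1 kb upstream (chr12:111004109-111004747), also held by all 8 libraries. It had 59.6, 22.7 and 20.2 for the FL libraries, 10.0, 19.2 and 46.8 for the KO libraries, and 40.7 and 42.1 for 4S-A, so KO lay below FL in set 1 and above it in set 2.

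Set side by side, the 4 gene starts kept the same leaders in every library. In each deposited list Rcor1 ranked first and Kdm1a second. Gfi1 was above Gfi1b in 5 libraries, namely FL 1 and set 2, and below it in 3. In equal-length lists the 4 set 1 libraries averaged 58.0 ± 4.95 at the Gfi1 and 67.6 ± 6.88 at the Gfi1b gene end (SD, n = 4), with overlapping ranges of 51.4 to 62.3 and 59.3 to 75.8. Those of set 2 averaged 47.2 ± 5.06 and 19.5 ± 7.80 (SD, n = 4), with ranges of 41.4 to 53.2 and 9.57 to 25.8 that did not overlap. Gfi1b thus ranked above Gfi1 on average in set 1 and below it in set 2.

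**Figure D3:**
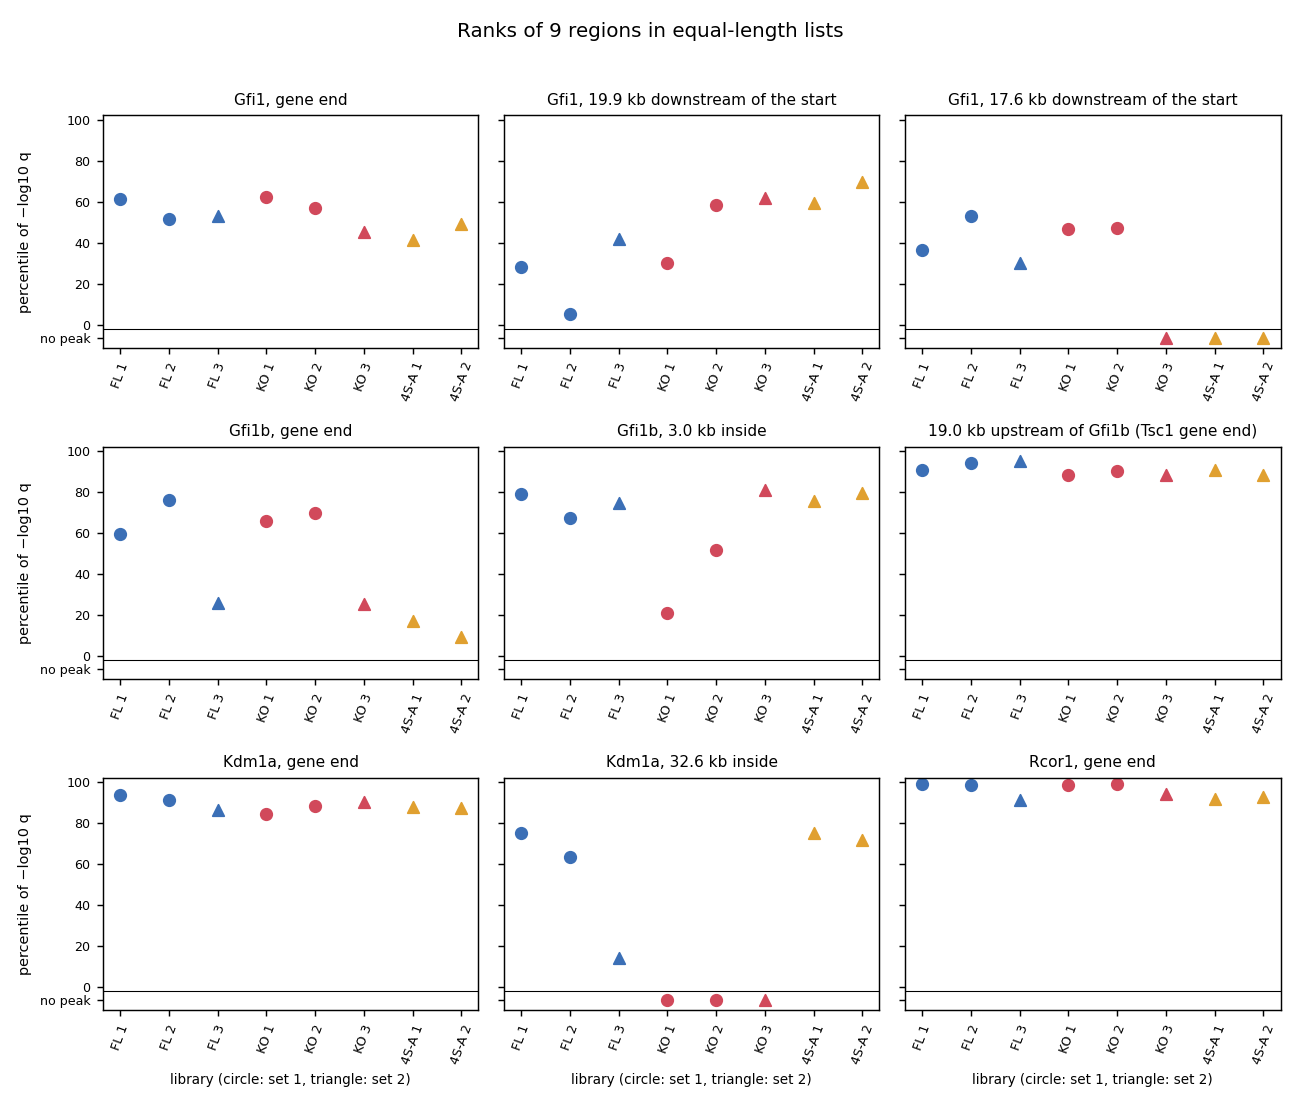
Percentile of −log10 q in equal-length lists (vertical axis) by library for 9 regions, with circles for set 1, triangles for set 2 and colours for FL (blue), KO (red) and 4S-A (yellow); points in the lowest band had no peak. The Kdm1a region 32.6 kb inside the gene has no peak in the 3 KO libraries, and the Gfi1b gene end lies at 59.3 to 75.8 for circles and at 9.57 to 25.8 for triangles.

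The number of regions at each locus was then compared between FL and KO. As deposited, Gfi1 had 7, 8 and 14 regions in FL, 9, 12 and 19 for the KO libraries, and 20 and 19 for 4S-A. The mean was 9.67 ± 3.79 in FL and 13.3 ± 5.13 in KO (SD, n = 3 each), a difference of 3.67 with p = 0.5 in a two-sided exact permutation test, adjusted p = 1. KO was higher by 3 within set 1 and by 5 within set 2. The pooled difference was 0.833 without KO 3, 2.33 without FL 1, and 5.83 without FL 3 or without KO 1. Gfi1b averaged 9.33 ± 3.21 and 9.67 ± 1.15, Kdm1a 6.33 ± 2.52 and 7.67 ± 2.08, and Rcor1 14.3 ± 3.21 and 14.3 ± 2.52, each with an adjusted p of 1 in the same exact test.

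With 3 libraries against 3 the smallest p is 0.1, so this test cannot reach 0.05. In equal-length lists Gfi1 had 7, 8 and 9 regions in FL, 9, 10 and 10 for the KO libraries, and 8 and 9 for 4S-A, a KO minus FL difference of 1.67 with exact p = 0.2 and adjusted p = 0.8. The difference was 2 within set 1 and 1 between KO 3 and FL 3. The other 3 genes had adjusted exact p-values of 0.933 to 1, with differences of 0.667 at Gfi1b, -0.667 at Kdm1a and 0.333 at Rcor1.

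**Figure D4:**
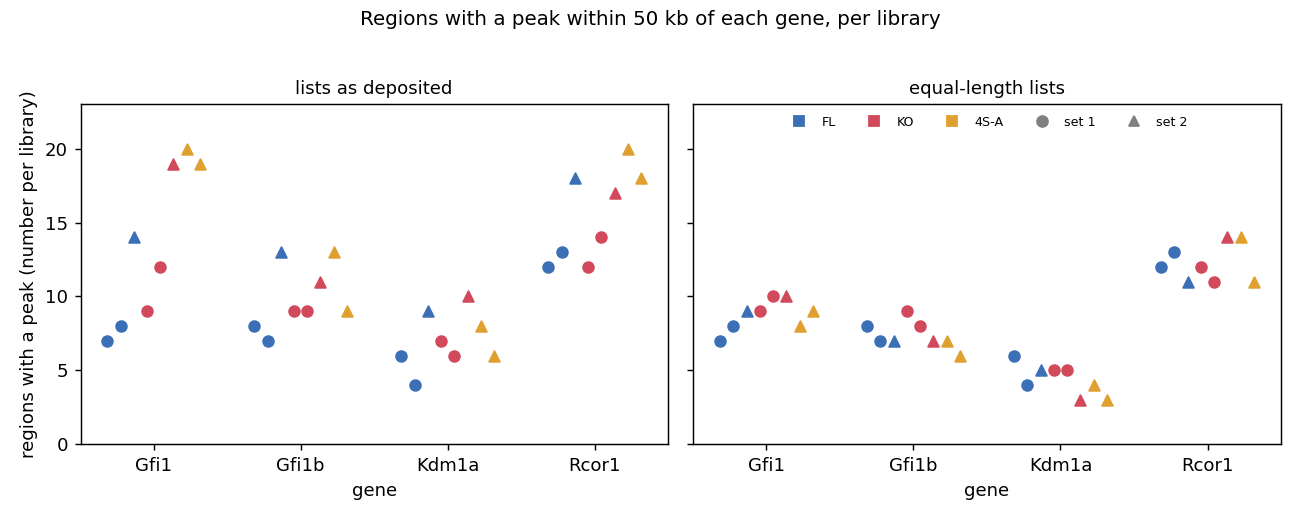
Number of regions with a peak within 50 kb of each gene, 1 point per library, in lists as deposited (left) and in equal-length lists (right). Triangles (set 2) lie above circles (set 1) at Gfi1 on the left, at 14 to 20 against 7 to 12, and within 7 to 10 with them on the right.

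Lost regions had a peak in each control library and in none of the other group, and gained regions the reverse. As deposited, none of the 29 member regions held by all FL libraries was lost in KO, against 0.214% of such regions in all, and none of 30 was gained, against 0.754%. In equal-length lists, 2 of 26 were lost (Kdm1a 32.6 kb inside the gene and Gfi1 33.5 kb upstream) against 0.563%, and 1 of 25 was gained (Gfi1 38.1 kb upstream) against 0.706%. These 3 regions are the ones described above. Fewer than 3 regions per call is too little to read a share from.

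Within set 1, 1 of 29 regions was lost as deposited (the same Kdm1a region) against 2.07%. Another 2 of 31 were gained (Gfi1 38.1 kb upstream and Kdm1a 84.0 kb from the start) against 13.5%. In equal-length lists 2 of 29 were lost against 5.01% and 2 of 30 gained against 7.88%.

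Within set 2 KO 3 could only be set against FL 3, with no replicate check. There 4 of 54 regions were lost (Gfi1b 43.8 and 14.9 kb, Rcor1 17.8 kb and Kdm1a 82.7 kb from the start) against 14.4%. A further 7 of 57 were gained against 15.3%, 5 of them at Gfi1 and 2 at Kdm1a. The gained Gfi1 regions lay 10.6 kb upstream and 7.6, 13.9, 41.2 and 47.2 kb from the start, with percentiles of 5.66 to 45.0 in KO 3. In equal-length lists 4 of 32 were lost against 13%, namely Gfi1 33.5 kb upstream and 17.6 kb from the start, and Kdm1a 32.6 and 76.2 kb from the start. There 6 of 34 were gained against 12.7%, with 3 at Gfi1 (38.1, 16.2 and 10.6 kb upstream) and 3 at Rcor1 (31.5 kb upstream and 103.3 and 109.5 kb from the start), at 0.661 to 35.6 in KO 3.

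For 4S-A against FL 3, 3 of 54 regions were lost as deposited against 11.7%: Kdm1a 18.7 kb upstream, Kdm1a 82.7 kb and Gfi1b 23.9 kb from the start. There were 7 of 49 gained against 16.4%, again 5 of them at Gfi1. Of these Gfi1 regions 4 (10.6 kb upstream and 7.6, 13.9 and 41.2 kb from the start) were also gained in KO 3, but both comparisons share FL 3 as the control. In equal-length lists 3 of 32 were lost against 13.9% and 2 of 28 gained against 13.8%, the latter at Gfi1 38.1 and 16.2 kb upstream. No 4S-A share exceeded its background.

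By rank, 4S-A was compared with FL 3 and KO 3 together in equal-length lists. Of 25 member regions, 3 ranked higher without overlap against 19.4% of 38321 regions: Gfi1 29.1 kb upstream, Kdm1a 96.8 kb and Rcor1 120.8 kb from the start. Another 5 ranked lower against 26.1%, among them the Gfi1b gene end, lower by 12.4 on average, and the Gfi1 region at 26.7 kb. The median difference over the 25 regions was -0.522, against -0.667 over all regions. For KO against FL the median was 0.890 over 22 member regions and -0.164 over all.

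The genes that work with these 4 were looked at in the same way, from lists that had been chosen with earlier results of these data known. A region counted as lost or gained by the same rule, for all FL against all KO libraries. At or near a gene here means inside its span or within 50 kb of it, and other genes may lie closer. Of 325 regions at 15 CoREST and LSD1 partner genes, 34.2% were in all 8 libraries. As deposited none of 117 was lost and 1 of 141 was gained, at Ehmt1, a histone H3 lysine methyltransferase. In equal-length lists that gain was not called, none of 109 was lost, and 1 of 110 was gained, at Gse1. Of 92 regions at 7 other genes for SNAG-domain factors, such as Snai1 and Insm1, none of 36 was lost and none of 44 was gained as deposited, while in equal-length lists 1 of 35 was gained, near Snai1. The shares over all regions, given above, were 0.214% lost and 0.754% gained as deposited and 0.563% and 0.706% in equal-length lists.

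Among 264 regions at 14 known GFI1 target genes, 2 of 109 were lost and none of 115 gained as deposited. Those lost were near Cdkn1a, the cell-cycle inhibitor p21, and near Egr1, a transcription factor of monocyte differentiation. In equal-length lists 3 of 98 were lost and none of 94 gained. The loss near Egr1 was called there too, at 55.7, 14.8 and 18.8 for the FL libraries, that near Cdkn1a was not, and the others were near Csf1r and Hoxa9. The region counted for Hoxa9, a homeobox gene active in MLL-rearranged leukemia, was chr6:52204079-52204805. It was at 72.3, 77.6 and 73.0 for the FL libraries and had no peak in KO or 4S-A. In the lists as deposited KO 3 held a peak there. The region is not a gene end of Hoxa9, which had no gene-end peak in FL 1 or FL 2. It counted through the 50 kb window only, and other genes may lie closer to it.

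Among 305 regions at 10 upstream regulators of Gfi1 and Gfi1b, 1 of 104 was lost and 2 of 123 were gained as deposited. The gained ones were near Runx1, a master regulator of blood formation, and near Lyl1, a blood-forming basic helix-loop-helix factor, and neither was called in equal-length lists, where 1 of 95 was lost and none of 93 gained. The lost region, also counted for Lyl1 through the 50 kb window (chr8:84652913-84653563), was called in both kinds of list. In equal-length lists it was at 58.2, 22.6 and 8.995 for the FL libraries, without a peak in KO, and at 40.9 and 49.4 for 4S-A. FL and 4S-A libraries with a peak and KO libraries without one were also the order at the Kdm1a region 32.6 kb inside the gene in equal-length lists. In the lists as deposited KO 3 held a peak at the Kdm1a region (28.4) but none at the Lyl1 region. How many of the 193 regions lost in equal-length lists have this order was not counted.

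The label of the cells was checked by gene-end peaks. Of 8 genes that mark the gate or the granulocyte-macrophage lineage, 6 to 7 had one in each library, and Kit stood at 85.4 to 90.3 in the deposited lists. Of 2 stem cell markers, Ly6a, which encodes the excluded Sca-1, had none in any library, and Procr, the endothelial protein C receptor, had one in all 8, at 56.2 to 68.8. Of the markers of other cells, 1 to 4 of 6 for red cells, 1 to 3 of 4 for megakaryocytes, 1 to 2 of 5 for T and NK cells, 0 to 2 of 4 for B cells and 0 to 2 of 3 for endothelium had a peak per library, with Epor and Pf4, the platelet factor of megakaryocytes, in all 8.

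Over 13212 genes with a gene-end region, those with the most similar percentiles across the 8 equal-length lists were found by the mean absolute difference. For Gfi1 they were Ercc6 (3.69), Fam171a2 (4.21) and Prpsap1 (4.33), and for Gfi1b they were Pea15a (5.12), Itgax (6.13) and Egr3 (6.57). For Kdm1a they were Dido1 and Gid8 (0.828 each, from 1 region that both share) and Sgpl1 (1.03), and for Rcor1 they were Hdgf (0.528), Ypel5 (0.644) and Casc1 (0.658).

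The 50 kb limit left some regions just outside. At Gfi1 the nearest lay 239 bp beyond it (chr5:107775899-107777717), with 79.2 in FL 3, 30.7 in KO 2, 66.9 in KO 3, and 79.0 and 79.9 for 4S-A. The nearest one inside on that side was 11109 bp within it. At Rcor1 the region 125.3 kb from the start straddled the limit, with summits 581 bp inside and 255 bp outside.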

How the data were processed

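The submitters' processing notes name MACS2, featureCounts, Picard, Bowtie2 (2.2.9) and Trim Galore (0.4.4), with build mm10 and no roles or parameters. Peaks were called separately in each sample, since the authors deposited a peak list for each. Each peak has a deposited score (10 times the −log10 q, truncated, in over 99.9% of peaks), and a deposited fold enrichment over local background (a ratio). The authors also deposited its −log10 p-value, its −log10 q-value and its summit. The lowest −log10 q was 1.30 to 1.41. No value was scaled between libraries, and read depth is unknown, so list length is the only depth shown.

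Peaks from the X and the 19 autosomes (99.7 to 99.9%) were merged at 1 bp of overlap with Python 3.11.15, numpy 2.4.6 and pandas 2.3.3. Spans came from a RefSeq table of GRCm38.p6, and exons and introns were not used here. Presence calls, ranks and exact permutation tests with Benjamini-Hochberg adjustment over the 4 genes were computed. The code of the calls was run on simulated lists of similar length without a difference between sets. That run checks the code only and cannot test the effect of list length. The members and lists were chosen with earlier results of these data known. Named regions were gene ends, the strongest region, regions in all 8 libraries (up to 5 per gene), and regions lost or gained. Genes alike were the 3 nearest by mean absolute difference of percentile. Alternatives were equal-length lists, a −log10 q of at least 2, peaks trimmed to 100 bp on either side of the summit, a 10 kb window, ranks by fold, KO 3 as the control, leaving out each library, and a replicate block. Groups came from the sample labels. The order of neighbouring regions was added after seeing the data.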

Additional observations from a re-analysis of the deposited data

Results flagged for a closer look

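At 9 of the 22 member regions held by all FL and KO libraries in equal-length lists (40.9%), every KO library of set 1 moved one way against FL and KO 3 the opposite way against FL 3, as at 7076 of 30257 regions in all (23.4%). Set 2 had 1 library a side, and the difference between sets was not tested. KO minus FL percentiles at Gfi1b were -10.8 for the set 1 libraries and 4.69 for KO 3 against FL 3 at 36.6 kb from the start, and -36.8 and 6.50 at 3.0 kb. At the Kdm1a start they were -5.90 and 3.78. Upstream of Rcor1 they were 2.88 and -2.41 at 47.1 kb, -26.5 and 26.7 at 35.1 kb, and -12.6 and 3.94 at 4.0 kb. Downstream of the Rcor1 start they were 14.9 and -12.5 at 32.6 kb, 7.16 and -2.26 at 120.8 kb, and -9.90 and 16.5 at 125.3 kb. No Gfi1 region was among the 9.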

How the results depend on the processing

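Equal-length lists moved the counts of member regions lost and gained in KO from 0 and 0 to 2 and 1, those lost in set 1 from 1 to 2, and those gained in 4S-A from 7 to 2. The last was 11 with trimmed peaks and 3 with KO 3 as the control. In the 10 kb window, which holds fewer regions, there were 0 gained in set 1, 0 lost and 3 gained in 4S-A, 0 pairs of opposite order, and 0 (KO) and 2 (4S-A) regions of non-overlapping rank. These rank counts, 2 for KO and 8 for 4S-A, were 1 and 14 by fold enrichment, 0 and 15 in deposited lists, and 1 for KO with trimmed peaks. Leaving out 1 library gave 0 to 1 lost and 0 to 1 gained in KO, 1 to 3 lost and 3 to 9 gained in set 1, and 5 to 10 lost and 8 to 12 gained in 4S-A. It gave 2 to 11 and 12 to 23 non-overlapping ranks, and 1 to 2 pairs. Fewer libraries make each call easier. The difference in region number at Gfi1b, 0.333, turned to -0.333 in the 10 kb window and ranged from -0.833 to 2.17 without 1 library. It was -0.333 without FL 1, -0.833 without FL 2 and -0.333 without KO 3. Without 1 library that at Gfi1 ranged from 0.833 to 5.83, at Kdm1a from 0.167 to 2.67 and at Rcor1 from -1.33 to 1.83. That at Kdm1a, 1.33, turned to -0.667 in equal-length lists and -0.333 in the 10 kb window. The cause was not tested. With a replicate block the differences were as without it (3.67 at Gfi1, exact sign-flip p = 0.25, the smallest possible with 3 pairs). Whether the numbers pair the libraries cannot be told from so few libraries. Deviations correlated at 0.172, 0.0857 and 0.327 within same-numbered pairs. The same-numbered KO library was the best match for FL 1 and FL 3, while FL 2 correlated best with KO 1 (0.185). List length limits which weak regions can be seen.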
